A study of Mus musculus with 9 samples.

Results

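A set of 10 genes for cytokine receptor chains was examined in splenic B cells, *Il2ra*, *Il2rb*, *Il5ra*, *Il21r*, *Il6ra*, *Il10ra*, *Il9r*, *Ifngr1*, *Ifngr2* and *Tgfbr2*. They were taken by gene symbol from an expression table of 17596 genes, and all 10 were found and passed the filter on low values, as did 10823 genes in all. B cells came from the spleens of young adult mice. Every group carried *Mb1Cre*, which expresses the Cre recombinase from the *Mb1* (*Cd79a*) locus in the B cell lineage. *Mb1Cre* mice were the control, and *Mct1f/fMb1Cre* mice also carried 2 floxed copies of *Mct1* (*Slc16a1*), which encodes a transporter of lactate and pyruvate. Cells were untreated (day 0, 2 libraries per genotype) or cultured for 3 days with LPS at 10 μg/mL and IL-4 at 50 ng/mL (day 3, 2 *Mb1Cre* and 3 *Mct1f/fMb1Cre* libraries). Values are FPKM, which are scaled to transcript length and library size. Levels are compared between genes on this scale, although the length used for each gene is not known. A gene was called changed at a Benjamini-Hochberg adjusted p under 0.05 from limma and a difference above 0.5 in size on the log2(FPKM + 1) scale, on which all log2 differences stand and which understates the change of low genes.

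Cytokine receptors on B cells are mostly assembled from a chain that binds the ligand and a partner chain that signals through Janus kinases (JAK) and STAT transcription factors. IL-2, IL-9 and IL-21 share the common γ chain *Il2rg*, IL-5 uses the common β chain *Csf2rb*, IL-6 uses gp130 (*Il6st*) and IL-10 uses *Il10rb*. The interferon-γ receptor is built from *Ifngr1* and *Ifngr2*, and TGF-β is bound by *Tgfbr2*, a serine/threonine kinase that acts on SMAD proteins together with *Tgfbr1*. In B cells these inputs bear on growth (IL-2), on switching and plasma cell formation (IL-21, IFN-γ, TGF-β) and on antibody secretion (IL-5, IL-6).

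The targeted gene was checked first. *Slc16a1* had 22.6 and 23.0 FPKM in the day 3 *Mb1Cre* libraries and 10.8, 9.81 and 9.50 FPKM in the *Mct1f/fMb1Cre* libraries, whereas on day 0 the genotypes overlapped at 3.71 to 4.33 FPKM. The FPKM of all genes summed to between 477079 and 491459 on day 0 and between 547355 and 563586 on day 3. The 7 B cell markers summed to 4238 to 4673 FPKM on day 0 and 2200 to 2289 FPKM on day 3, with *Cd79b* at 613 FPKM or more in every library. RNA of other cells was also present on day 0, where 8 myeloid markers summed to 1033 to 1829 FPKM and 7 T cell markers to 32.8 to 36.2 FPKM, against 18.1 to 28.4 and 1.87 to 2.73 FPKM on day 3. The first *Mct1f/fMb1Cre* library of day 0 stood apart, with the highest myeloid sum and, as the 1 library of day 0 above 1 FPKM, 31.1 FPKM of the Y-linked gene *Ddx3y*. All 5 libraries of day 3 had 14.7 to 16.9 FPKM of *Ddx3y*, so activation and the sex of the mice cannot be told apart in *Mb1Cre* cells. Sex was also uneven between the genotypes on day 0 and hence in the interaction of genotype and day, and its part there was not tested.

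The results turn on *Il2ra* and *Il9r*, whose promoters (RefSeq, GRCm38.p6) are shown from 250 bases before to 50 bases after the start of transcription. Sequences were matched for 8 of the 10 genes, all but *Il2rb* and *Il10ra*. Capitals mark matches to the κB motif, which NF-κB binds downstream of LPS and which was searched after the *Il2ra* sequence had been seen. The *Il2ra* promoter lies on the forward strand at chr2:11642542-11642841 and the *Il9r* promoter on the reverse strand at chr11:32200230-32200529, and both are written 5′ to 3′ along the gene.
Il2ra: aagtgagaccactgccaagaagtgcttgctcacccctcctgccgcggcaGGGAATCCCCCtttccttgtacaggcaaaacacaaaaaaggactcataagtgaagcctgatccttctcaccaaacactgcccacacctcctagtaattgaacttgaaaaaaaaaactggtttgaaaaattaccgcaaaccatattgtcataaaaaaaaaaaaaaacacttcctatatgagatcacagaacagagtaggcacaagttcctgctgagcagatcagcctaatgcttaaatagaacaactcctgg
Il9r: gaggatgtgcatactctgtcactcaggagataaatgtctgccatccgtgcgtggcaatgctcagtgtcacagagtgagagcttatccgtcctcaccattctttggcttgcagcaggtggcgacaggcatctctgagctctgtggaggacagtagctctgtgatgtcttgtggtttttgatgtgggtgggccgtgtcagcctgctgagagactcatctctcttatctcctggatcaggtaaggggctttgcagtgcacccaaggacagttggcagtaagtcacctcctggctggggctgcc
The *Il2ra* promoter held 2 overlapping κB matches, between bases -201 and -191 from the start site, and the *Ifngr2* promoter held 1. The κB motif was found in 4.51% of 32851 mouse promoters of this length. The motif TTCNNNGAA of STAT proteins was in 0 of the 8 promoters and in 8.30% of all promoters. The form with TTC and GAA 4 bases apart, which STAT6 prefers, was in those of *Ifngr2* and *Il5ra* (6.95% of all promoters), and the AP-1 motif TGACTCA was in that of *Il5ra* (5.20%). Both strands were searched, and no match of these motifs was found in the *Il9r* window.

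**Figure D1:**
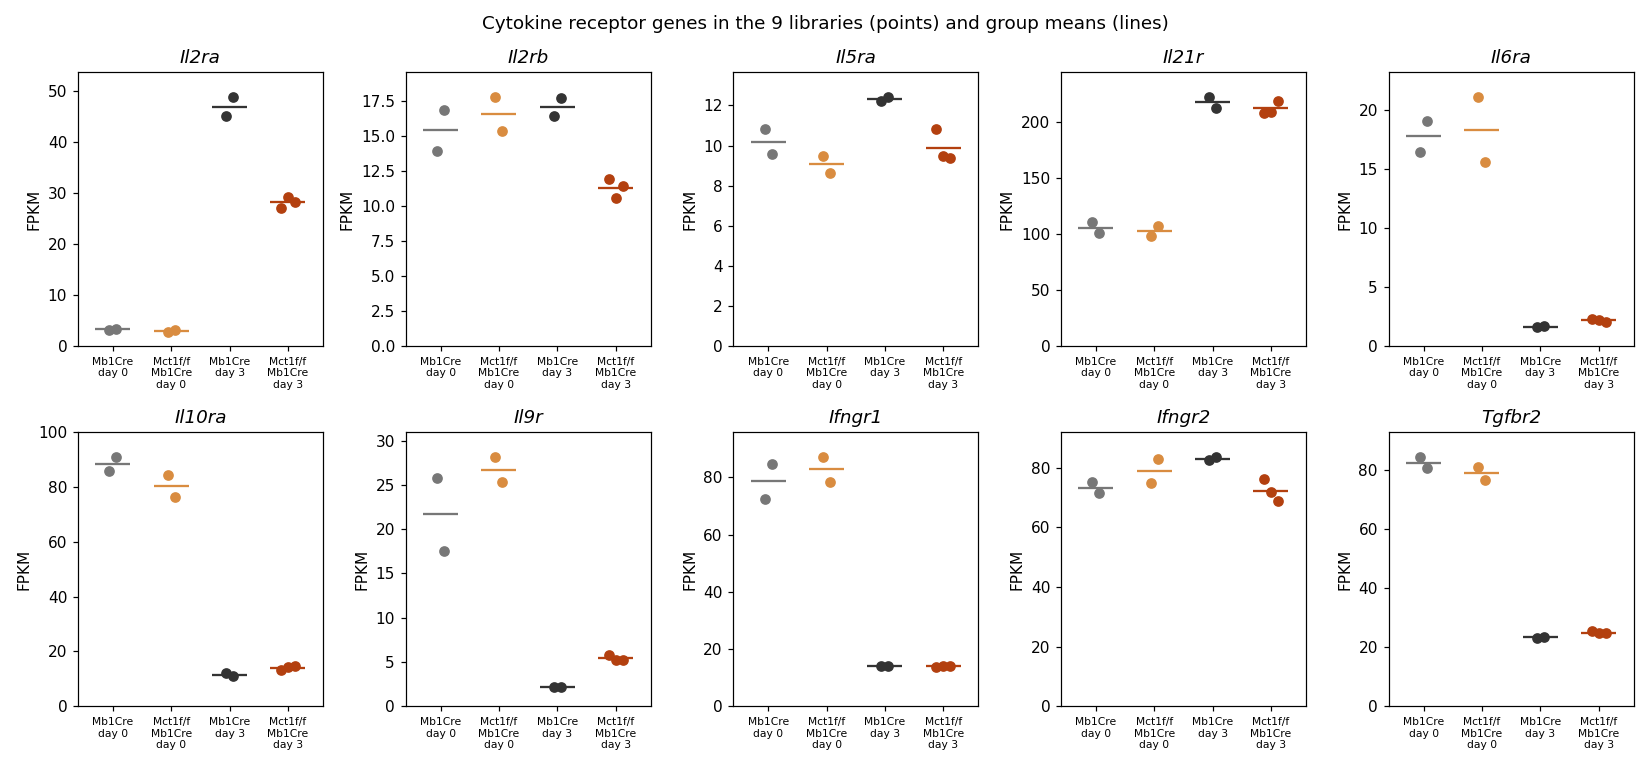
FPKM of the 10 receptor genes in each of the 9 libraries (points) with the mean of each group (lines), each panel on its own axis from 0. *Il2ra* was near 3 FPKM on day 0 and separated the genotypes on day 3, at 44.9 and 48.8 against 27.1 to 29.2 FPKM. *Il9r* was higher in all 3 *Mct1f/fMb1Cre* libraries on day 3.

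On day 3, *Mct1f/fMb1Cre* B cells had less transcript of the α and β chains of the IL-2 receptor and more of the IL-9 receptor. *Il2ra* fell to 60.1% and *Il2rb* to 66.2% of the control, whereas *Il9r* rose 2.49-fold. These were the 3 called genes among the 10, 1 higher and 2 lower, at a background of 2.42% of all tested genes called (0.887% higher and 1.53% lower). In 8 of the 10 genes the *Mct1f/fMb1Cre* libraries lay outside the range of the *Mb1Cre* libraries, as in 47.1% of all tested genes. The median log2 difference of the 10 genes was -0.025, and that of all tested genes -0.0100. In these bulk libraries, fewer cells with a transcript and less of it in each cell cannot be told apart.

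*Il2ra* encodes CD25, the α chain that raises the affinity for IL-2 and marks activated lymphocytes (GRCm38 chromosome 2, 11642807 to 11693193). It had 44.9 and 48.8 FPKM in the day 3 *Mb1Cre* libraries and 27.1, 29.2 and 28.3 FPKM in the *Mct1f/fMb1Cre* libraries. The lowest control library lay well above the highest *Mct1*-deficient one, and the log2 difference was -0.71 (standard error 0.0639, adjusted p = 5.93e-05 from limma). On day 0 the gene had 3.16 and 3.35 FPKM in *Mb1Cre* and 2.69 and 3.11 FPKM in *Mct1f/fMb1Cre* cells. These ranges did not overlap either, but the difference of -0.13 was not significant (adjusted p = 0.527 from limma).

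*Il2rb* encodes CD122, the β chain that carries the signal of IL-2 and IL-15 (chromosome 15, 78479256 to 78495271). On day 3 it had 16.5 and 17.7 FPKM in *Mb1Cre* and 11.9, 10.6 and 11.4 FPKM in *Mct1f/fMb1Cre* libraries. The groups did not overlap, and the log2 difference was -0.56 (standard error 0.0874, adjusted p = 0.00194 from limma), close to the limit of 0.5. The call was lost with a pseudocount of 5 (-0.44) and with quantile normalization (-0.50, just under the limit in size). On day 0 they overlapped, at 14.0 and 16.9 FPKM against 17.8 and 15.3 FPKM (log2 difference 0.10, adjusted p = 0.727). The ratio of *Il2ra* to *Il2rb* on day 3 was 2.73 and 2.75 in *Mb1Cre* cells and 2.27, 2.76 and 2.47 in *Mct1f/fMb1Cre* cells, so the genotypes overlapped in the balance of the α and β chains. *Il2rg*, the γ chain of the same receptor, had 318 and 322 FPKM in *Mb1Cre* and 283 to 306 FPKM in *Mct1f/fMb1Cre* cells on day 3, a log2 difference of -0.14 that missed the threshold (adjusted p = 0.0571 from limma).

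*Il9r* encodes the ligand-binding chain for IL-9 (chromosome 11, 32187541 to 32200279). On day 3 it had 2.15 and 2.19 FPKM in *Mb1Cre* libraries and 5.78, 5.18 and 5.28 FPKM in *Mct1f/fMb1Cre* libraries. The spread within each genotype was small beside the gap between them, and the log2 difference was 1.02 (standard error 0.123, adjusted p = 4.19e-04 from limma). On day 0 it had 25.8 and 17.6 FPKM in *Mb1Cre* and 28.2 and 25.3 FPKM in *Mct1f/fMb1Cre* cells, which overlapped (log2 difference 0.31, adjusted p = 0.410). Without the first *Mb1Cre* library of day 0 the *Il9r* difference on day 0 was 0.58 and called (adjusted p = 0.0371 from limma), which leaves 1 control library that is assumed to vary like the other groups.

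The remaining 7 genes were not called between the genotypes on day 3. *Il5ra*, the chain specific for IL-5, had 12.2 and 12.4 FPKM in *Mb1Cre* against 10.8, 9.50 and 9.36 FPKM in *Mct1f/fMb1Cre* cells (log2 difference -0.29, adjusted p = 0.0239). *Ifngr2*, the signalling chain for interferon-γ, had 82.6 and 83.6 against 76.2, 72.0 and 68.9 FPKM (log2 difference -0.20, adjusted p = 0.0357), and *Il10ra*, the ligand-binding chain for IL-10, had 12.0 and 11.0 against 13.1, 14.3 and 14.8 FPKM (log2 difference 0.27, adjusted p = 0.0172). Each of these 3 genes separated the genotypes without overlap and passed the adjusted p of limma but not the limit of 0.5, so that 6 of the 10 genes passed the adjusted p alone, as did 15.2% of all tested genes.

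*Il6ra*, which binds IL-6, stood at 1.58 and 1.68 FPKM in *Mb1Cre* and 2.29, 2.21 and 2.08 FPKM in *Mct1f/fMb1Cre* cells on day 3 (log2 difference 0.28, adjusted p = 0.114 from limma). *Tgfbr2* had 23.3 and 23.5 against 25.3, 24.8 and 24.7 FPKM (log2 difference 0.09, adjusted p = 0.193). Neither difference was significant, although the libraries of the genotypes did not overlap. *Il21r*, which drives plasma cell formation, had 222 and 212 FPKM against 208, 209 and 219 FPKM, and *Ifngr1*, which binds interferon-γ, had 14.3 and 14.0 against 13.8, 14.2 and 14.0 FPKM. Both overlapped between the genotypes, with log2 differences of -0.04 and -0.01 (adjusted p = 0.732 and 0.918 from limma).

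Levels of some markers of other cells, and of plasma cells, which arise from B cells, also differed between the genotypes on day 3. The 8 myeloid markers summed to 18.1 and 19.6 FPKM in *Mb1Cre* and to 25.4 to 28.4 FPKM in *Mct1f/fMb1Cre* libraries. Of these 2 of 8 were called higher (*Lyz2* and *Adgre1*), and 0 were at 0 FPKM in all libraries of the day. *Lyz2* held most of the gap, at 11.5 and 10.0 against 16.8 to 20.4 FPKM. *S100a8*, *S100a9* and *Csf3r* had lower means in *Mct1f/fMb1Cre* cells and were not called. The 6 plasma cell markers summed to 457 and 473 against 379 to 408 FPKM, with 0 of the 5 tested called. *Irf4* (log2 difference -0.49, adjusted p = 5.54e-05 from limma) and *Jchain* (-0.47, adjusted p = 0.0377) were lower and missed only the fold limit. *Irf4* was also at 46.9 to 50.4 FPKM in the naïve libraries, so it does not mark plasma cells alone. *Prdm1* (0.19, adjusted p = 0.141) and *Sdc1* (0.17, adjusted p = 0.358) were higher without overlap. Of the T cell markers 0 of the 5 tested were called. *Cd3e* was at 0.11 FPKM or less in each library, and *Cd8b1* was highest at 1.01 to 1.67 FPKM. Of the NK cell markers 0 of 6 were called. *Ncr1* and *Klrb1c* were at 0.35 to 0.74 FPKM, whereas *Prf1* was at 6.57 to 7.74 and *Gzma* at 79.5 to 92.5 FPKM. The part of these cells in the receptor values was not tested.

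**Figure D2:**
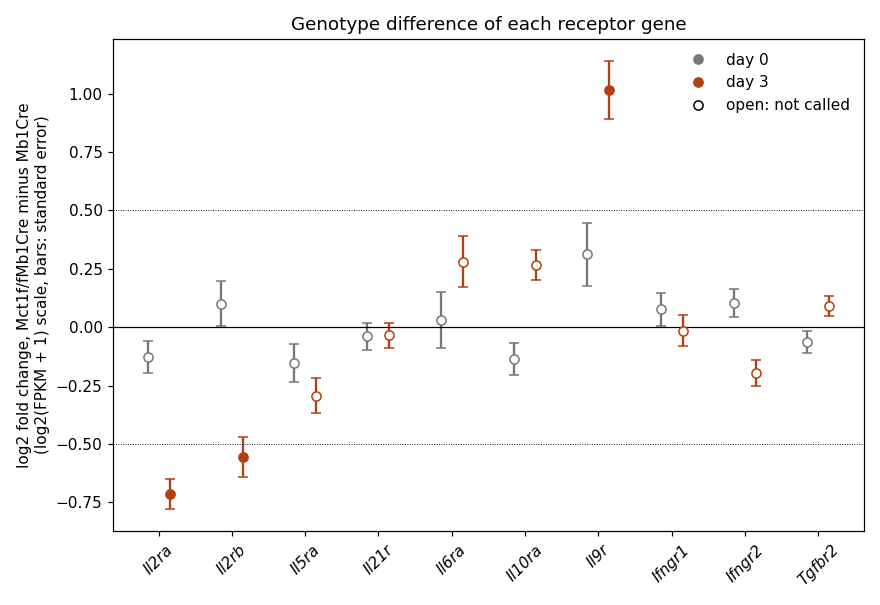
Log2 difference between *Mct1f/fMb1Cre* and *Mb1Cre* B cells for each receptor gene on day 0 (grey) and day 3 (brown), with standard errors from limma. Filled points were called and dotted lines mark the limit of 0.5. *Il2ra* (-0.71) and *Il2rb* (-0.56) lie below it and *Il9r* (1.02) above it on day 3, and no gene was called on day 0.

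Before culture, 0 of the 10 genes were called between the genotypes by limma, 1 had an unadjusted p under 0.05 (*Il9r*), and 0.277% of all tested genes were called. In 3 of the 10 genes (*Il2ra*, *Il5ra* and *Il10ra*) the *Mct1f/fMb1Cre* libraries lay below the *Mb1Cre* libraries without overlap, and groups did not overlap in 38.4% of all tested genes. *Il5ra* had 10.8 and 9.59 FPKM against 9.50 and 8.62 FPKM, and *Il10ra* had 86.0 and 90.9 against 84.4 and 76.4 FPKM. Adjusted p values of the 10 genes ranged from 0.410 for *Il9r* to 0.948 for *Il6ra*. Of the 5 tested plasma cell markers 1 was called higher in *Mct1f/fMb1Cre* cells, *Jchain* (log2 difference 0.97, adjusted p = 0.0193 from limma). Of the 6 tested erythroid and platelet markers 1 was, *Hba-a1* (0.64, adjusted p = 0.0293). The plasma cell sum was 185 and 197 FPKM in *Mb1Cre* and 282 and 239 FPKM in *Mct1f/fMb1Cre* libraries. The part of these cells in the day 0 receptor values was not tested.

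The order of the transcript levels differed between the days. In naïve *Mb1Cre* cells *Il21r* led at 106 ± 7.03 FPKM (SD, n = 2), followed by *Il10ra* at 88.5 ± 3.51, *Tgfbr2* at 82.4 ± 2.73, *Ifngr1* at 78.7 ± 8.75 and *Ifngr2* at 73.3 ± 2.55 FPKM. In that run the ranges of *Tgfbr2*, *Ifngr1* and *Ifngr2* overlapped from each gene to the next. The lower levels were those of *Il9r* at 21.7 ± 5.82, *Il6ra* at 17.8 ± 1.82, *Il2rb* at 15.4 ± 2.08, *Il5ra* at 10.2 ± 0.856 and *Il2ra* at 3.26 ± 0.134 FPKM, and here *Il9r* overlapped with *Il6ra* and *Il6ra* with *Il2rb*. After 3 days the order in *Mb1Cre* cells was *Il21r*, *Ifngr2*, *Il2ra*, *Tgfbr2*, *Il2rb*, *Ifngr1*, *Il5ra*, *Il10ra*, *Il9r* and *Il6ra*, with no overlap between neighbours. In *Mct1f/fMb1Cre* cells of day 3, *Il10ra* (14.1 ± 0.852 FPKM, n = 3) overlapped with *Ifngr1* (14.0 ± 0.220 FPKM) and *Il2rb* (11.3 ± 0.697 FPKM) with *Il5ra* (9.90 ± 0.811 FPKM).

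Activation here means the change from day 0 to day 3 with LPS and IL-4. No library came from cells cultured without them, so 3 days of culture and the stimuli cannot be told apart. On activation *Il2ra* and *Il21r* rose and *Il6ra*, *Il10ra*, *Il9r*, *Ifngr1* and *Tgfbr2* fell in both genotypes. Thus in *Mb1Cre* cells 2 of the 10 genes rose and 5 fell, where 57.8% of all tested genes were called (24.8% higher and 33.0% lower). In *Mct1f/fMb1Cre* cells 2 rose and 6 fell, the sixth being *Il2rb*, where 56.5% were called (23.4% higher and 33.2% lower). The median log2 change of the 10 genes was -0.82 and -1.07, and that of all tested genes -0.12 and -0.14, respectively.

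*Il2ra* rose most, 14.4-fold in *Mb1Cre* cells (log2 change 3.49, standard error 0.0700, adjusted p = 8.07e-12 from limma) and 9.71-fold in *Mct1f/fMb1Cre* cells (2.90, standard error 0.0639, adjusted p = 1.11e-11). *Il21r* rose 2.06-fold in both genotypes, from 98.1 to 111 FPKM over the 4 naïve libraries to 208 to 222 FPKM over the 5 activated libraries. Its log2 changes were 1.03 and 1.04 (adjusted p = 1.93e-08 and 7.80e-09 from limma).

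The 5 genes that fell in both genotypes did so by 3.16-fold to 10.9-fold. *Il6ra* fell 10.9-fold in *Mb1Cre* and 8.38-fold in *Mct1f/fMb1Cre* cells, from 15.6 to 21.2 FPKM in the naïve libraries. *Il9r* fell 10.0-fold in *Mb1Cre* cells and 4.94-fold in *Mct1f/fMb1Cre* cells. *Il10ra* fell 7.69-fold and 5.72-fold, from 76.4 to 90.9 FPKM in the naïve libraries.

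*Ifngr1* fell 5.56-fold in *Mb1Cre* and 5.92-fold in *Mct1f/fMb1Cre* cells, whereas its partner *Ifngr2* was called in neither genotype (log2 changes 0.18 and -0.12, adjusted p = 0.0169 and 0.0580 from limma). The ratio of *Ifngr1* to *Ifngr2* was therefore 0.946 to 1.19 over the 4 naïve libraries and 0.168 to 0.203 over the 5 activated libraries. In FPKM, transcript of the binding chain of the interferon-γ receptor was thus far below that of the signalling chain after culture. *Tgfbr2* fell 3.53-fold and 3.16-fold and *Tgfbr1* fell by 1.70 and 1.59 on the log2 scale, and their ratio overlapped between the days, at 6.38 to 7.31 and 7.07 to 8.52. Adjusted p values for these decreases ranged from 2.46e-11 for *Il10ra* in *Mb1Cre* cells to 2.10e-08 for *Il9r* in *Mct1f/fMb1Cre* cells.

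*Il5ra* and *Il2rb* were not called on activation in *Mb1Cre* cells. *Il5ra* went from 10.8 and 9.59 FPKM to 12.2 and 12.4 FPKM in *Mb1Cre* cells (log2 change 0.25, adjusted p = 0.0131 from limma, under the fold limit) and by 0.11 in *Mct1f/fMb1Cre* cells (adjusted p = 0.173). *Il2rb* went from 14.0 and 16.9 to 16.5 and 17.7 FPKM in *Mb1Cre* cells (0.14, adjusted p = 0.180). It fell in *Mct1f/fMb1Cre* cells, from 17.8 and 15.3 to between 10.6 and 11.9 FPKM (-0.51, standard error 0.0874, adjusted p = 2.00e-04). That call just passed the limit, and without the first *Mct1f/fMb1Cre* library of day 0, the one that stood apart, the change was -0.41, and without the second *Mct1f/fMb1Cre* library of day 3 it was -0.47.

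The direction of small changes on activation depended on the scaling. The median of all tested genes moved from -0.12 and -0.14 as deposited to -0.31 and -0.30 when library totals were made equal, 0.065 and 0.056 with median-of-ratios scaling, and 0.016 and 0.028 with quantile normalization. In *Mb1Cre* cells 2687 genes were called higher and 3571 lower as deposited, 2078 and 4416 with equal totals, 3425 and 2761 with median-of-ratios scaling and 3120 and 2956 with quantile normalization. In *Mct1f/fMb1Cre* cells these numbers were 2532 and 3588, 2010 and 4323, 3333 and 2736, and 3054 and 2852. The 2 genes that rose and the 5 that fell in both genotypes were called under each scaling, whereas *Il2rb* in *Mct1f/fMb1Cre* cells was at -0.31 with median-of-ratios scaling and -0.35 with quantile normalization and was then not called.

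Many markers of other cells fell over the same 3 days. The myeloid sum went from at least 1033 to at most 28.4 FPKM, *Csf1r* from 76.1 to 91.0 FPKM down to 0.35 to 0.90 FPKM, and the NK marker *Ncr1* from 7.16 to 9.23 down to 0.35 to 0.68 FPKM. The sum of the 6 NK markers was not lower, at 63.1 to 72.3 FPKM on day 0 and 89.8 to 101 FPKM on day 3, of which *Gzma* held 79.5 to 92.5 FPKM on day 3. *Prf1* was not lower either, at 4.71 to 5.44 FPKM on day 0 and 6.57 to 7.74 FPKM on day 3. *Il6ra*, *Il10ra* and *Ifngr1* are also transcribed in myeloid cells and *Il2rb* in NK cells. The part of these cells in the day 0 values was not tested.

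**Figure D3:**
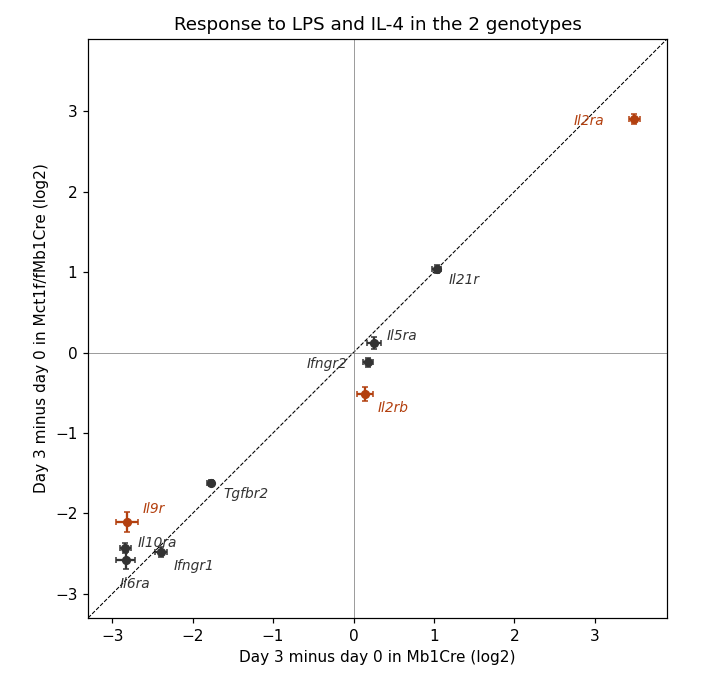
Log2 change from day 0 to day 3 in *Mb1Cre* cells (horizontal axis) against that in *Mct1f/fMb1Cre* cells (vertical axis), with standard errors from limma, for the 10 receptor genes. The dashed line marks equal change. *Il2ra* (3.49 and 2.90), *Il2rb* (0.14 and -0.51) and *Il9r* (-2.82 and -2.11), in brown, had a called interaction of genotype and day. The call of *Il9r* was lost in 12 of 18 other settings of the processing.

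Whether the change from day 0 to day 3 differed between the genotypes was tested by the interaction term (genotype by day). This term uses the same 9 libraries as the comparisons above. The interaction also carries the uneven *Ddx3y* of the groups, and the part of sex in it was not tested. It was called for 3 of the 10 genes, 1 higher and 2 lower, where 3.23% of all tested genes were called (1.02% higher and 2.22% lower). *Il2ra* rose less in *Mct1f/fMb1Cre* cells, by 0.59 on the log2 scale (interaction -0.59, standard error 0.0948, adjusted p = 0.00516 from limma), a call lost with quantile normalization (-0.48). *Il2rb* fell in *Mct1f/fMb1Cre* cells alone by the call, with an interaction of -0.66 (standard error 0.130, adjusted p = 0.0121). *Il9r* fell less in *Mct1f/fMb1Cre* cells (interaction 0.70, standard error 0.182, adjusted p = 0.0387). This last call was lost when any 1 of 8 libraries was left out, all but the second *Mb1Cre* library of day 0, with interactions from 0.44 without the first *Mb1Cre* library of day 0 to 0.78 without the first *Mct1f/fMb1Cre* library of day 0. That of *Il2rb* was lost without the second *Mb1Cre* library of day 3 (-0.61, adjusted p = 0.0541) and with no filter on low values (adjusted p = 0.0594). *Il10ra* (0.40, adjusted p = 0.0246) and *Ifngr2* (-0.30, adjusted p = 0.0451) passed the adjusted p but not the fold limit, so that 5 of the 10 genes passed the adjusted p alone, as did 9.42% of all tested genes.

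The partner chains did not differ between the genotypes by the call. Of 7 partner chains 6 were tested, since *Tgfbr3*, a co-receptor of TGF-β, had 0.42 FPKM or less in every library, and 0 were called on day 3, 0 on day 0 and 0 in the interaction, with 0 at an adjusted p under 0.05 from limma. On day 3 *Csf2rb* had 7.73 ± 0.488 FPKM (SD, n = 2) in *Mb1Cre* and 8.01 ± 0.404 FPKM (n = 3) in *Mct1f/fMb1Cre* cells, *Il6st* 6.22 ± 0.368 and 6.23 ± 0.327, *Il10rb* 18.0 ± 0.523 and 17.7 ± 0.766 and *Tgfbr1* 3.03 ± 0.417 and 3.14 ± 0.127 FPKM. *Csf2rb2*, a close copy of *Csf2rb* whose reads could be shared between both genes, had 0.965 ± 0.0495 and 1.06 ± 0.0764 FPKM. On activation 5 of the 6 fell in both genotypes, where 33.0% and 33.2% of all tested genes fell, and *Il2rg* was the exception, with log2 changes of -0.17 and -0.23 that were under the fold limit (adjusted p = 0.0053 and 4.68e-04 from limma). *Il2rg* was the most abundant of the receptor chains in these lists, at 283 to 362 FPKM in all 9 libraries.

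The ligands *Il6* and *Il10* fell in *Mct1f/fMb1Cre* cells relative to the control on day 3. Of 11 ligand genes 9 had a row and 4 were tested, of which 2 were called lower and 0 higher, where 1.53% of all tested genes were called lower and 0.887% higher. *Il2* and *Il9* were not analysed here. *Il6*, which supports plasma cells, had 11.8 and 12.5 FPKM in *Mb1Cre* and 4.13, 3.76 and 3.58 FPKM in *Mct1f/fMb1Cre* cells (log2 difference -1.44, standard error 0.0847, adjusted p = 5.23e-06 from limma). *Il10*, which restrains inflammation and supports B cells, had 4.71 and 4.73 FPKM against 1.59, 2.07 and 2.06 FPKM (-0.98, standard error 0.0981, adjusted p = 1.29e-04). Both were at 0.18 FPKM or less in every naïve library. Their receptors *Il6ra* and *Il10ra* were not called between the genotypes, so *Mct1*-deficient cells had less transcript of the ligands without a called change of the binding chains.

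Among the genes that act below the receptors, 1 of 14 kinases and transducers and 1 of 21 tested feedback inhibitors were called on day 3, where 2.42% of all tested genes were called. *Stat4*, which transmits IL-12 and type I interferon, had 75.2 and 79.8 FPKM in *Mb1Cre* and 51.4, 52.6 and 54.8 FPKM in *Mct1f/fMb1Cre* cells (log2 difference -0.54, adjusted p = 7.38e-04 from limma). *Socs3*, which STAT3 induces and which inhibits gp130 signalling, had 33.5 and 30.9 against 17.4, 18.4 and 19.4 FPKM (-0.78, adjusted p = 3.55e-04). Of 18 tested chains of other cytokine receptors 1 was called, *Lifr*, which pairs with gp130 and had 4.93 and 4.87 against 9.74, 8.53 and 8.73 FPKM (0.76, adjusted p = 2.94e-04). The median log2 differences were -0.032 for the kinases and transducers, 0.012 for the feedback inhibitors and 0.029 for the other chains. On activation 4 of the 14 kinases and transducers rose and 6 fell in *Mb1Cre* cells, and 6 of the 21 feedback inhibitors rose and 12 fell, where 24.8% of all tested genes rose and 33.0% fell. In *Mct1f/fMb1Cre* cells these numbers were 5 and 6, and 5 and 10, where 23.4% rose and 33.2% fell.

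**Figure D4:**
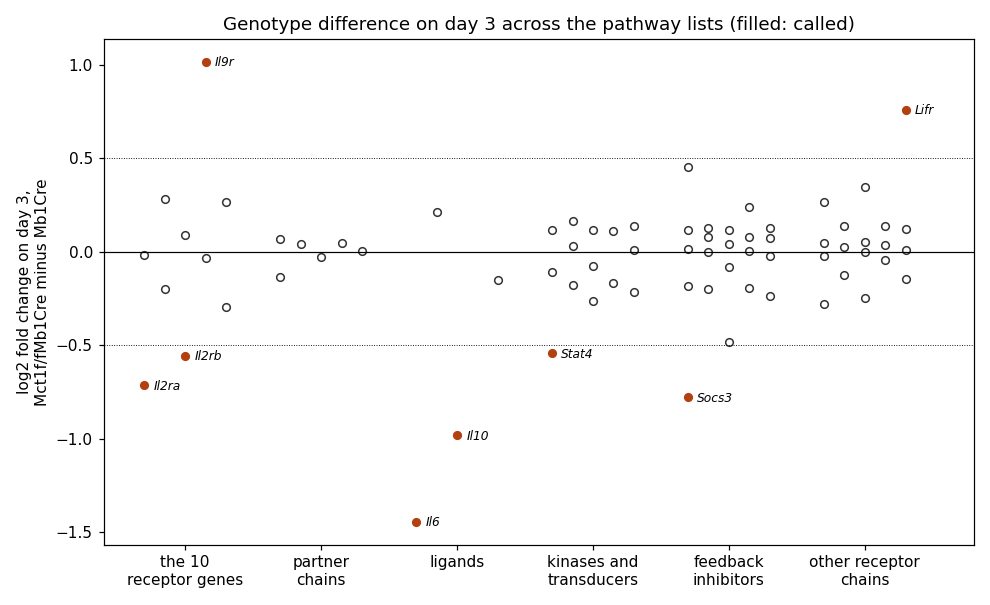
Log2 difference between *Mct1f/fMb1Cre* and *Mb1Cre* B cells on day 3 for every tested gene of the receptor set and of 5 related lists, 1 point per gene. Filled points were called, and dotted lines mark the limit of 0.5. No partner chain was called, and *Il6* (-1.44), *Il10* (-0.98), *Socs3* (-0.78) and *Il2ra* (-0.71) lie lowest.

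The genes with the most similar profile were taken by Pearson's r of log2(FPKM + 1) over the 9 libraries, which share the split between the days. For *Il2ra* these were *Gstt2* and *Cth* (r = 0.999 each), for *Il9r* *Rasgrp3* (0.996) and *H2-Eb2* (0.994), and for *Il21r* *Cct7* and *Hars* (0.999 each). *Tgfbr2* was closest to *Ash1l* and *Cd55*, *Ifngr1* to *C6*, *Il10ra* to *Nfkbid* and *5031439G07Rik* and *Il6ra* to *Fmo5* and *Ptpre*, with r above 0.99 in each case. Such values are common for genes that differ strongly between the days, since 3656 genes had an r above 0.95 with *Tgfbr2*. The 3 genes with the smallest changes between the days had few close profiles. *Il2rb* was closest to *Os9* (0.967) and *Lcp2* (0.967), *Il5ra* to *Gpx3* (0.966) and *Nanos1* (0.949), and *Ifngr2* to *Zfp958* (0.909) and *Ufl1* (0.904), with 6, 1 and 0 genes above 0.95, respectively.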

How the data were processed

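Primary splenic B cells were profiled by RNA sequencing in 9 libraries. The authors deposited FPKM values, 1 row per gene, rounded to 2 decimals. The submitters' notes name Bowtie2 and GRCm38/mm10, and assembly and analysis are credited to the BGISEQ institute. The quantifier, annotation and versions are not given in the sources used here. FPKM hold no counts, so depth is unknown and no counting interval was given.

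Here log2(FPKM + 1) was computed without further scaling for genes averaging 1 FPKM or more over the 9 libraries, and 1 mean per group was fitted to all 9 libraries with limma 3.58.1 in R 4.3.3 (empirical Bayes with a trend, Benjamini-Hochberg adjustment over all genes tested). The procedure was tested on simulated data with noise drawn separately for each gene, so that test does not bear on uneven sex or RNA of other cells. Labels name no mouse, so p values measure the spread between libraries, which may be technical. The receptor genes and lists were chosen with earlier results of these data known. Named genes are the 10 receptor genes, the partner chains, up to 4 called genes of each list, and the 2 genes most like each receptor gene, 1 of which is not reported here. *Slc16a1* was named as the target and markers as defining genes. *Ddx3y* and the markers *Gzma*, *Prf1*, *Lyz2*, *Adgre1*, *S100a8*, *S100a9* and *Csf3r* were named after their values were seen. So were the markers *Cd8b1*, *Irf4*, *Jchain*, *Prdm1*, *Sdc1* and *Hba-a1*. Overlapping annotated genes exist for *Il2ra*, *Il6ra* (antisense *Gm42809*) and *Il10ra*, and strand is not given. Gene coordinates are from GENCODE M21 (GRCm38). Figures were drawn with matplotlib 3.10.9.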

Additional observations from a re-analysis of the deposited data

Results flagged for a closer look

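The effect of the genotype differed between day 0 and day 3 for 3 receptor genes by the interaction term of limma. The difference of the effects (day 3 minus day 0, log2) was -0.59 for *Il2ra*, -0.66 for *Il2rb* and 0.70 for *Il9r*. For *Il2ra* the genotype difference was -0.13 on day 0 and -0.71 on day 3, for *Il2rb* 0.10 and -0.56, and for *Il9r* 0.31 and 1.02. The part of the sex of the mice in these differences was not tested. No formal test for a single library far from the rest of its group was run, since each group held 2 or 3 libraries.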

How the results depend on the processing

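Of the recomputed log2 values of the receptor genes, 909 kept their direction and side of the threshold, 22 lost a call, 1 gained one and 18 changed sign, none of which was called. On day 3, *Il2ra* ranged from -0.77 to -0.64 and *Il9r* from 0.54 to 1.28 over all settings, both called in each at the limit of 0.5. *Il2rb* was not called with a pseudocount of 5 (-0.44) or quantile normalization (-0.50). With a fold limit of 1, 1 gene (*Il9r*) was called on day 3 and 0 in the interaction, and with no limit 6 and 5. The interaction had 1 called gene with no filter and 1 with quantile normalization, and between 1 and 3 with each library left out, whereas on day 3 each such count was 3. Where a group was left with 1 library, that library was assumed to vary like the others. *Il2ra* lost its interaction call with quantile normalization (-0.48). *Il9r* lost its interaction call in 12 of 18 settings. On day 0 between 0 and 1 gene was called with each library left out, the 1 being *Il9r*. Same-numbered libraries did not deviate together (r from -0.122 to 0.0867 between groups). With the replicate number as a block (replicate block), 3 genes were called on day 3, 0 on day 0, 3 in the interaction, 7 on activation in *Mb1Cre* and 8 in *Mct1f/fMb1Cre* cells, the same counts as without it, while over all genes the interaction count went from 350 to 274. With the numbers of the day 3 *Mb1Cre* libraries crossed, a pairing chosen after the data were seen, 7 were called on activation in *Mb1Cre* cells. Signs changed with equal totals for activation of *Il2rb* (-0.047) and *Ifngr2* (-0.021) in *Mb1Cre* and of *Il5ra* (-0.047) in *Mct1f/fMb1Cre* cells. With median-of-ratios scaling they changed for *Ifngr1* on day 3 (0.0025) and *Ifngr2* on activation in *Mct1f/fMb1Cre* cells (0.095), and with the replicate block for the interaction of *Il21r* (-0.019). With 1 library left out, ranges crossed 0 on day 0 for *Il2rb* (-0.029 to 0.23), *Il21r* (-0.11 to 0.028), *Il6ra* (-0.18 to 0.24) and *Ifngr1* (-0.036 to 0.19), and in the interaction for *Il21r* (-0.064 to 0.071) and *Ifngr1* (-0.20 to 0.021). The causes were not tested. The unknown depth limits what can be said of values near 1 FPKM.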
